A study of Mus musculus with 12 samples.

Results

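The replication-dependent histone genes encode the bulk of the linker histone H1 and the core histones H2A, H2B, H3 and H4 that package new DNA. They are transcribed in S phase under the coactivator NPAT, and their mRNAs end in a stem-loop that is bound by SLBP in place of a poly(A) tail. Libraries made from total RNA can therefore show them, while selection for poly(A) tails removes most of their mRNA. Members were taken by symbol (Hist1h to Hist4h in the GENCODE M21 annotation, with only symbols ending in ps left out as pseudogenes). The annotation holds 69 such genes, of which 65 were among the 18269 genes of the deposited table, and Hist1h2bh, Hist1h2bm, Hist2h2aa1 and Hist2h3c1 were not analysed here. A gene was tested where some group averaged 10 or more normalised reads, which 62 of the 65 reached, and Hist1h2aj, Hist1h2ao and Hist1h2bq did not.

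The samples were C57BL/6 embryoid bodies, balls of cells that form as embryonic stem cells differentiate. One line, 4_1, had the genotype Gcn5fx/fx, in which Gcn5 (gene symbol Kat2a, a histone acetyltransferase) is floxed, and the other, 4C2, was Gcn5-/-. They are called floxed and null below. Each line was harvested at day 3 and day 5 of differentiation with 3 samples a group by the labels, 12 in all, where the design note of the study has duplicates. Line and genotype cannot be told apart, since each genotype is 1 line. P-values measure the spread between samples, which may be technical, and in bulk RNA fewer cells of a type and less RNA per cell cannot be told apart.

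The libraries held 18022071 to 29446068 recovered reads, and the histone genes took 1.05% to 1.58% of them. Floxed day 5 replicate 3 had the highest share (1.58%), against at most 1.30% elsewhere, and the median log2 deviation of the tested histone genes from their mean over all samples was 0.37 there. It was -0.29, -0.22 and -0.15 in the null day 5 libraries and -0.05 to 0.18 in the other 8. Among 17 other RNAs without a poly(A) tail its summed value, 714747, lay between those of the other floxed day 5 libraries, 691316 and 743337.

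The members fall into 6 H1, 19 H2A, 16 H2B, 11 H3 and 13 H4 genes. The 19 H2A genes include Hist1h2aj and Hist1h2al, which the annotation types as pseudogenes though their symbols do not end in ps. The Hist1 genes on chromosome 13 number 54 and gave 92.3% of the summed signal, the 8 Hist2 genes lie on chromosome 3, the 2 Hist3 genes on chromosome 11 and Hist4h4 on chromosome 6. The stem-loop was searched after the stop codon as a fixed histone pattern, whose stem opens with GG and pyrimidines and whose loop opens with TTT. The stem of 6 bases had to pair around the loop of 4 bases. This pattern was found in 44 of the 69 members and in 48 of 21830 coding genes (0.22%). Hairpins of other sequence were not searched, so these counts are not those of hairpins in general. Many of the other gene models end at or near the stop codon, and for those a missing stem-loop says nothing about the RNA. Others run on without this pattern, such as Hist2h2be (2192 bases after the stop codon), Hist1h2br (up to 1803) and Hist1h2bq (up to 1608). The 5 elements below belong to genes that differed between the lines or days and show some of the forms in which the element occurs. Stem and loop are in capitals, with 5 bases on each side, as the annotation gives the transcript (mm10).
Hist3h2ba: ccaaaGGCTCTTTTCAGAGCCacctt
Hist1h1e: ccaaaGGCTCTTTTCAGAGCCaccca
Hist1h3f: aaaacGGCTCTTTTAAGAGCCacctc
Hist1h4h: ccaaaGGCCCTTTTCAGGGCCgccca
Hist2h4: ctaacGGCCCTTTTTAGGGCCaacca
Among the 40 listed members with the element, 22 had the form of Hist3h2ba, 6 that of Hist1h3f, 7 that of Hist1h4h and 2 that of Hist2h4. Forms not printed are that of Hist1h4j, in 2 members, and that of Hist2h2ac, in 1. AATAAA, the core of the poly(A) signal, stood in the last 50 bases of an annotated transcript in 13 of the 65 listed members and in 66.4% of coding genes. Among the listed members, both elements were found in Hist1h1c, Hist1h1t, Hist1h2ae, Hist1h2bp, Hist1h4j, Hist2h4, Hist3h2a, Hist3h2ba and Hist4h4.

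Promoters (RefSeq, GRCm38.p6, 250 bases upstream of the start) matched 61 of the 69 members. CCAAT, on either strand, stood in 82% of them and in 33.8% of all 32851 promoters. By family, 18 of 18 H2A, 16 of 16 H2B, 5 of 5 H1 and 8 of 10 H3 promoters held it, against 3 of 12 H4 promoters. TATAAA stood in 45.9% of the members' promoters and 12.4% of all. ATTTGCAT, the octamer bound by OCT factors, stood in 21.3% against 1.6%, in 7 H2A and 6 H2B promoters and in none of the other families. Of these promoters 2 are printed, with these motifs and TGACGTCA in capitals. That of Hist1h2ba (chr13:23934157-23934406, minus strand) lies in the gap it shares with Hist1h2aa, and the pair fell together between the days. That of Hist1h4h (chr13:23530794-23531043, plus strand), an H4 gene that was lower in the null line, has no CCAAT.
Hist1h2ba: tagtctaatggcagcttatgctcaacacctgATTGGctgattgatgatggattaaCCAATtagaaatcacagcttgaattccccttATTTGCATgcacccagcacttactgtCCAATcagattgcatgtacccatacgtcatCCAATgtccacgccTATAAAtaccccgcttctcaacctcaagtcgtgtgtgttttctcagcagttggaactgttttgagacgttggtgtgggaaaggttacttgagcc
Hist1h4h: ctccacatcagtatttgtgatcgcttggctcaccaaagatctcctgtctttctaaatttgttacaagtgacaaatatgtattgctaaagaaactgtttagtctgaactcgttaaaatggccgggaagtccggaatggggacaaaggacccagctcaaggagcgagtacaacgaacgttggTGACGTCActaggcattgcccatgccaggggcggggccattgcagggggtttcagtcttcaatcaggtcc
TGACGTCA stood in 6.56% of the members' promoters and 1.55% of all. Such matches describe the letters in these windows and do not show binding.

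By read density, the mean value per kilobase of exon over all 12 samples, Hist1h1a, Hist1h4h, Hist1h4f, Hist1h2bb, Hist1h1b, Hist1h4k, Hist1h4d and Hist1h2ak stood highest, in that order, at 26724 to 13269 normalised reads per kilobase. H1 genes gave 28.4% of the summed signal, H4 26.2%, H2B 20.2%, H3 14.7% and H2A 10.4%. Near-identical members share reads. A median of 49.5% of each listed member's 50-base windows also occurred in a gene elsewhere, 34 members had under 50% of their windows shared, and 22 overlapped a gene on the opposite strand. Values of members such as Hist1h2ah (90.7% shared), Hist1h3i (87.6%) and Hist2h3b (79.7%) are uncertain in that sense. Genes annotated over a member were not counted as elsewhere. On the same strand Hist1h1e and Hist1h2be overlapped each other and Gm11398. Hist1h2ac overlapped Gm24991 on its strand, Hist2h2bb overlapped Gm42743 and Hist3h2a overlapped Trim17. What these overlaps did to the counts was not tested.

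Summed over the 65 genes, floxed day 3 samples held 287576, 301449 and 304885 normalised reads and null day 3 samples 275369, 295054 and 311720. At day 5 the floxed samples held 283209, 279965 and 360571 and the null samples 231981, 243106 and 251829. The groups overlapped at day 3 and did not at day 5. The ratio of null to floxed means was 0.987 at day 3 and 0.787 at day 5, or 0.860 without floxed day 5 replicate 3. By family the day 3 ratio was 0.898 for H4, 0.974 for H3, 1.04 for H2A, 0.961 for H1 and 1.13 for H2B. Null day 3 sums of H2B, 62945 to 64747, lay above the floxed ones, 54856 to 57880. The day 5 ratio was 0.714 for H4, 0.766 for H3, 0.811 for H2A, 0.814 for H1 and 0.855 for H2B. Without floxed day 5 replicate 3 these ratios were 0.774, 0.834, 0.919, 0.876 and 0.953, which brought H2A and H2B close to 1. Between the days the sum changed 1.03-fold in the floxed line, or 0.945-fold without that replicate, and 0.824-fold in the null line.

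**Figure D1:**
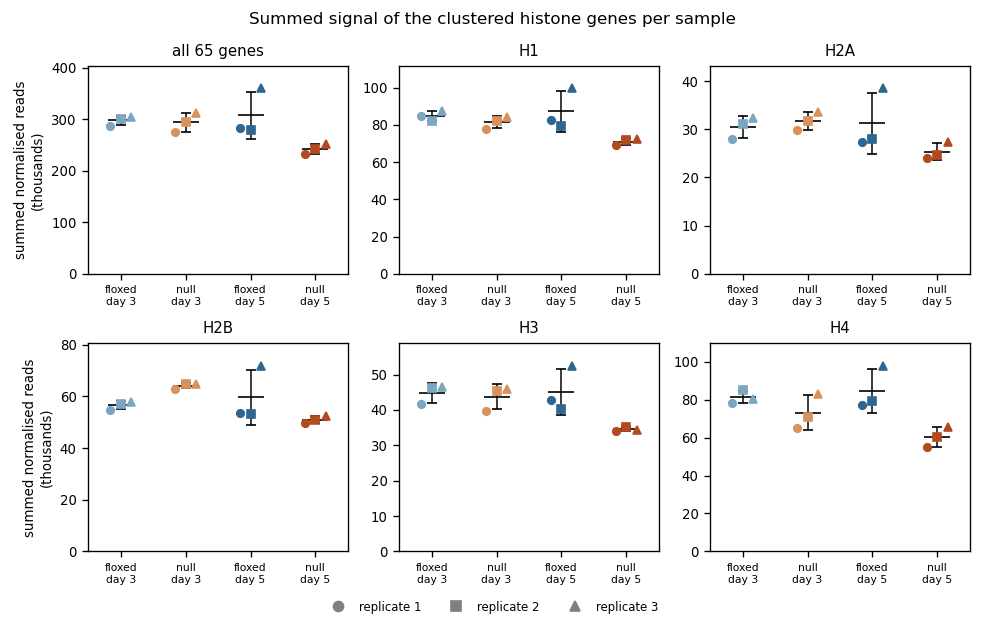
Summed normalised reads, in units of 1000, of the histone genes per sample, for all 65 genes and by family. Points are replicates 1 to 3, the bar is the mean ± SD (n = 3). At day 5 the null samples sum to 231981 to 251829 and lie below every floxed sample, of which replicate 3 is the highest at 360571.

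The lines were compared first at day 3. Kat2a held 2228 ± 151 normalised reads (SD, n = 3) in the floxed line and 701 ± 122 in the null line (log2 change -1.68 ± 0.11, SE). Reads remained in the null line, and the part of the gene that was deleted is not given in the sources used here. By limma with adjustment over all 17000 genes tested, 1 histone gene was higher and 2 were lower in the null line at day 3. Over all genes 4.09% were higher and 2.03% lower, 6.12% in all. The median log2 change of the 62 was 0.01, beside 0.00 over all genes, and 34 lay above 0 and 28 below.

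The gene that was higher, Hist3h2ba, encodes an H2B and lies apart from the large clusters (chr11:58948920-58949533). It held 3114, 3556 and 3793 normalised reads in floxed and 5834, 6241 and 8575 in null day 3 samples, which do not overlap (log2 change 0.96 ± 0.17, limma adjusted p = 0.0055). At day 5 it held 2400, 2543 and 3543 against 3828, 4192 and 5090 (0.64 ± 0.17, limma adjusted p = 0.014). Kat2a lies on the same chromosome, whose 1332 tested genes had a median change of 0.36 at day 3 and 0.33 at day 5. Hist3h2ba lay at percentile 92.8 of them at day 3 and 77.3 at day 5. With chromosome 11 centred on its own median its day 5 call was lost (limma adjusted p = 0.15), as it was without floxed day 5 replicate 1 (0.059) or null day 5 replicate 3 (0.058). Its neighbour Hist3h2a, an H2A gene of low level, held 51.3 to 89.0 in floxed and 58.7 to 140.6 in null day 3 samples and was not called at either day (0.53 ± 0.36 and 0.76 ± 0.36). With the replicate block it was higher at day 5 (limma adjusted p = 0.022).

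The 2 genes lower at day 3 lie close together on chromosome 3. Hist2h4 (chr3:96261682-96263311), which encodes H4, held 3467, 3530 and 3474 normalised reads in the floxed line and 2165, 2439 and 2948 in the null line (-0.48 ± 0.11, limma adjusted p = 0.027). Hist2h3b (chr3:96268654-96269141), an H3 gene, held 2330, 2312 and 2577 against 1873, 1706 and 1749 (-0.44 ± 0.10, limma adjusted p = 0.026). In both genes every null sample lay below every floxed sample. Neither call held without each sample in turn. With the replicate number as a block 4 genes were lower, Hist1h1e and Hist1h3f in addition, beside 4.53% of all genes.

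At day 5 Kat2a held 2207 ± 165 normalised reads in the floxed line and 817 ± 67.5 in the null line (SD, n = 3; -1.43 ± 0.11). Of the 62 histone genes 18 (29.0%) were lower in the null line and 1, Hist3h2ba, was higher. Over all genes 13.5% were lower and 13% higher, 26.5% in all. The members' median change was -0.29, beside -0.02 over all genes, and 54 of the 62 lay below 0. In 28 of the 62 genes (45.2%) the 3 null and 3 floxed samples did not overlap, a share near the 42% over all genes tested. In 27 of the 28 the null samples were the lower ones, as in 22.2% of all genes tested. Without floxed day 5 replicate 3, 12 members were lower, beside 9.02% of all genes, and the median was -0.15. With the replicate block 30 members were lower and 2 higher, beside 17.3% and 15.9% of all genes. Called in every fit were 12 of the 18 (limma, edgeR, DESeq2 and each sample left out), and Hist1h1d, Hist1h2ah, Hist1h2bp, Hist1h3b, Hist1h3i and Hist1h4j were not.

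**Figure D2:**
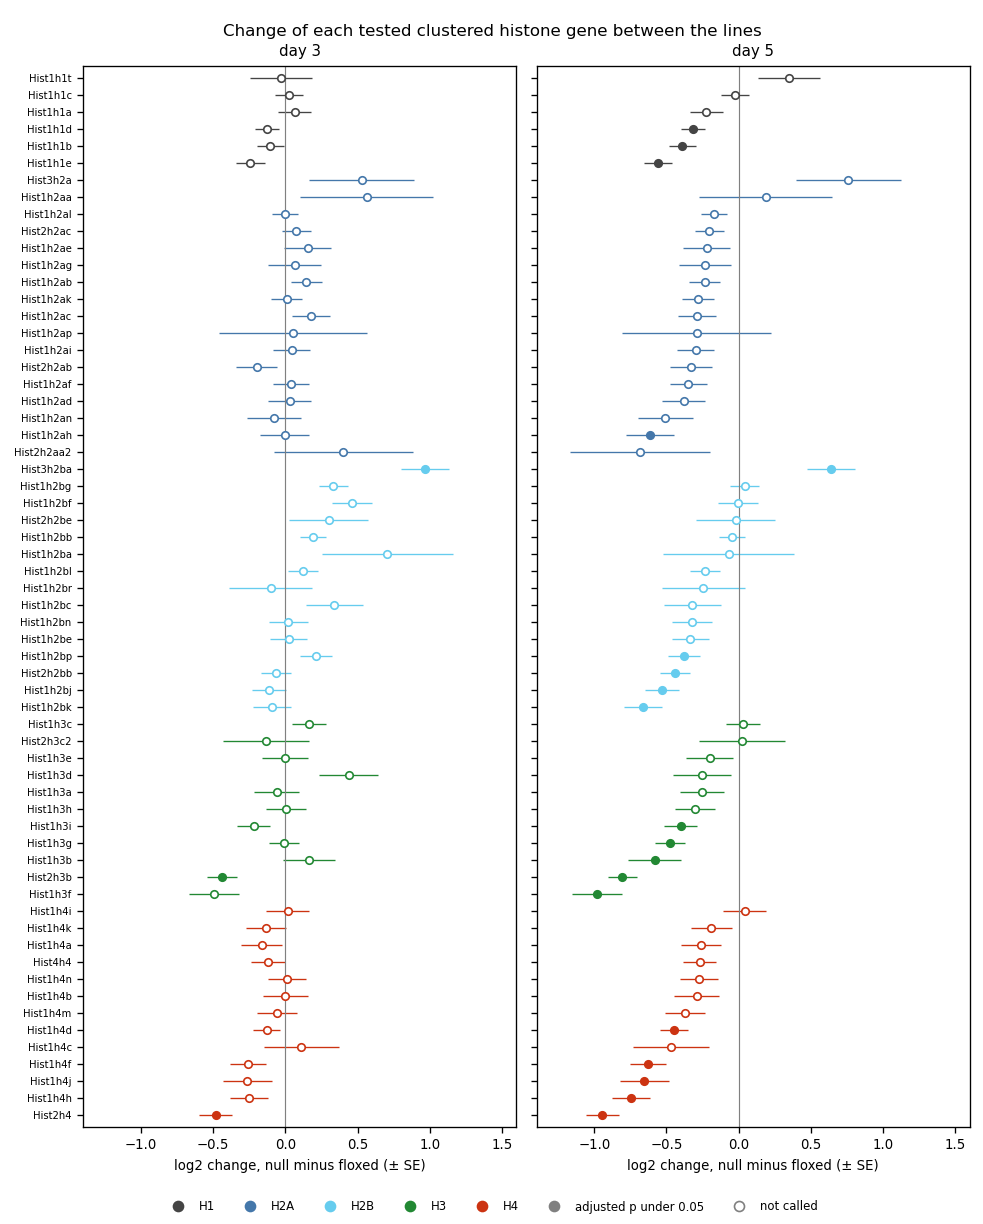
Log2 change, null minus floxed, ± SE, of the 62 tested histone genes at day 3 (left) and day 5 (right), grouped by family and ordered by the day 5 value; filled points have a limma adjusted p under 0.05. At day 3 the points scatter around 0 (median 0.01), and at day 5 54 of 62 lie below 0 (median -0.29).

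By family, 5 of 13 H4, 5 of 11 H3, 3 of 6 H1, 4 of 15 H2B and 1 of 17 H2A genes were lower at day 5. Without floxed day 5 replicate 3 these counts were 4, 3, 2, 3 and 0. The H4 genes were Hist2h4, Hist1h4h, Hist1h4f, Hist1h4d and Hist1h4j. Hist2h4 held 3113, 3135 and 3981 normalised reads in the floxed line and 1617, 1829 and 1836 in the null line (-0.95 ± 0.11, limma adjusted p = 0.00021), with no overlap. Hist1h4h, the second of all members by density, held 12274, 12646 and 16124 against 7872, 9046 and 7461 (-0.75 ± 0.13, limma adjusted p = 0.0019). Hist1h4f (-0.63 ± 0.13), Hist1h4j (-0.65 ± 0.17) and Hist1h4d (-0.45 ± 0.09) followed. Hist1h4k, also among the densest, was not called (-0.19 ± 0.14), nor was Hist4h4 (-0.27 ± 0.12), which the replicate block called (limma adjusted p = 0.021).

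Hist1h3f had the largest change of the tested H3 genes. It held 5318, 5493 and 8141 normalised reads in floxed and 3196, 2442 and 3957 in null day 5 samples (-0.98 ± 0.18, limma adjusted p = 0.0019). Hist2h3b held 2234, 2257 and 2961 against 1335, 1375 and 1525 (-0.80 ± 0.10, limma adjusted p = 0.00028). In both genes the groups did not overlap, and the highest floxed sample was replicate 3. Hist1h3g (-0.48 ± 0.10), Hist1h3b (-0.58 ± 0.18) and Hist1h3i (-0.40 ± 0.12) were the other 3 H3 genes called.

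The linker histone genes encode the H1 subtypes that bind DNA between nucleosomes. Hist1h1e held 16041, 16851 and 19534 normalised reads in floxed and 11109, 12290 and 12118 in null day 5 samples (-0.56 ± 0.10, limma adjusted p = 0.0018). Hist1h1b (-0.39 ± 0.09) and Hist1h1d (-0.31 ± 0.08) were lower too. Hist1h1a, the densest member, held 17915, 16320 and 22577 against 15531, 16615 and 16041, groups that overlap (-0.22 ± 0.11, limma adjusted p = 0.16). Hist1h1c (-0.02 ± 0.10) and the testis-type Hist1h1t (0.35 ± 0.21) were not called.

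Of the H2B genes Hist1h2bk (-0.66 ± 0.13), Hist1h2bj (-0.53 ± 0.12), Hist2h2bb (-0.44 ± 0.10) and Hist1h2bp (-0.38 ± 0.11) were lower at day 5, and of the H2A genes Hist1h2ah (-0.61 ± 0.17). Hist1h2bb (-0.04 ± 0.09), Hist1h2ak (-0.28 ± 0.11) and Hist2h2be (-0.02 ± 0.28), the last at 20.3 to 34.9 normalised reads at day 5, were not called. The replicate block called Hist1h2ak (limma adjusted p = 0.018). Hist1h2ah and Hist1h2bk are a divergent pair, 302 bases apart. Of the 14 pairs of members that start within 1000 bases of each other on opposite strands, 11 had both genes tested, and in 1 of them, this one, both were lower. By position, 3 of the 5 tested members in chr13:22035164-22043676 were lower, 4 of 15 in chr13:21715763-21837530 and 8 of 28 in chr13:23531050-23764406. On chromosome 3, 3 of the 8 Hist2 genes were lower. Of all members tested 29.0% were lower, and of all genes 13.5%.

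**Figure D3:**
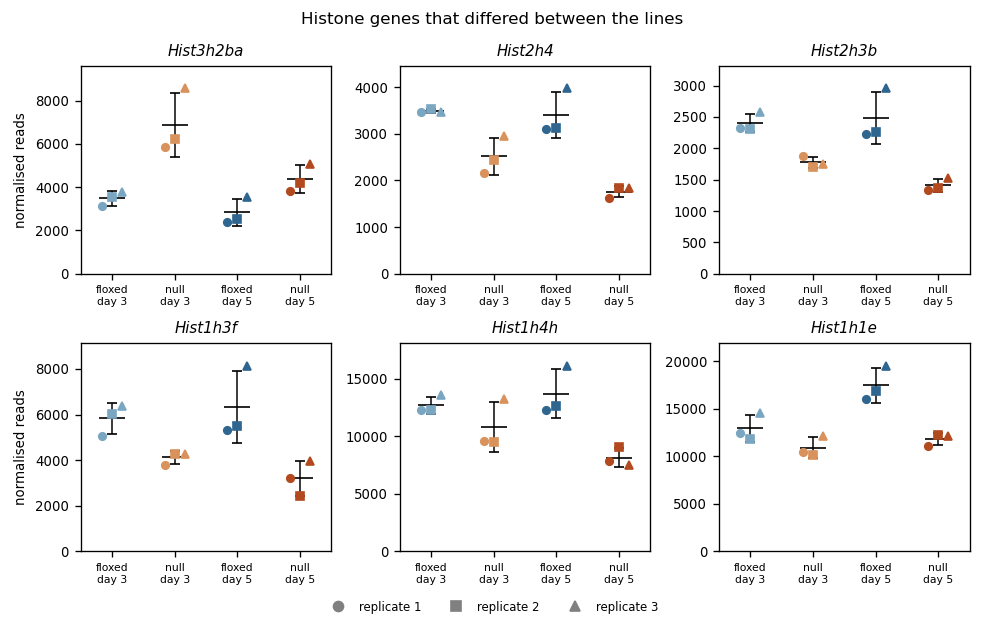
Normalised reads per sample of Hist3h2ba, Hist2h4, Hist2h3b, Hist1h3f, Hist1h4h and Hist1h1e. Points are replicates 1 to 3, the bar is the mean ± SD (n = 3). Hist3h2ba is higher in the null line at both days (5834 to 8575 against 3114 to 3793 at day 3), and the other 5 genes are lower at day 5 without overlap.

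Between the days in the floxed line, 1 histone gene rose and 3 fell, while 22.5% of all genes rose and 19.2% fell, 41.7% in all. The median change of the 62 was 0.05, or -0.10 without floxed day 5 replicate 3. In that fit 8 histone genes fell, beside 17.2% of all genes. The gene that rose was Hist1h1e, from 12445, 11822 and 14572 to 16041, 16851 and 19534 normalised reads (0.43 ± 0.10, limma adjusted p = 0.0035). In the null line it changed by 0.12 ± 0.10 and was not called, and the interaction of genotype and day was -0.31 ± 0.14 (limma adjusted p = 0.33).

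The 3 that fell, Hist1h1t, Hist1h2aa and Hist1h2ba, encode variants known from the male germ line. Hist1h1t fell from 255, 230 and 217 normalised reads to 103, 54.5 and 82.1 in the floxed line (-1.58 ± 0.21) and from 200, 258 and 230 to 109, 107 and 82.9 in the null line (-1.20 ± 0.21). Hist1h2aa fell from 140, 127 and 148 to 29.4, 8.38 and 40.2 (-2.61 ± 0.46) and from 175, 193 and 254 to 33.9, 14.0 and 32.1 (-2.99 ± 0.46). Hist1h2ba, 306 bases from it, fell from 84.2, 69.7 and 64.4 to 19.1, 8.38 and 34.05 (-1.97 ± 0.45) and from 108, 119 and 131 to 15.8, 9.32 and 32.1 (-2.74 ± 0.45). In each of these 6 comparisons the days did not overlap, and the calls held in every fit. The days did not overlap in 53.2% of all genes tested in the floxed line and 53.7% in the null line. Of 8 male germ cell markers 4 (Ddx4, Stra8, Dazl, Sycp3) were in the table. Their sum went from 2045 to 2416 down to 445 to 582 in the floxed line and from 2617 to 4352 down to 986 to 1350 in the null line. Their part in these falls was not tested.

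**Figure D4:**
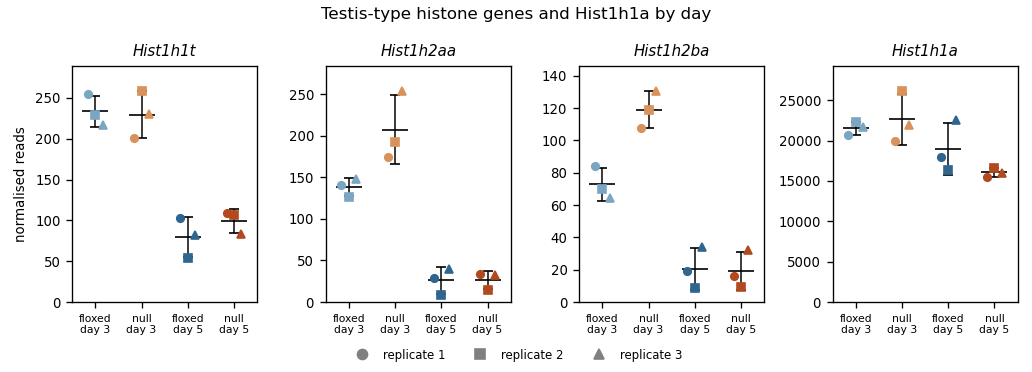
Normalised reads per sample of Hist1h1t, Hist1h2aa, Hist1h2ba and, for comparison, the densest member Hist1h1a. Points are replicates 1 to 3, the bar is the mean ± SD (n = 3). The 3 testis-type genes are lower at day 5 in both lines, and Hist1h1a is lower at day 5 in the null line (15531 to 16615 against 19930 to 26142).

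In the null line 23 of the 62 histone genes (37.1%) fell from day 3 to day 5 and none rose. Over all genes 21.9% fell and 22.6% rose, 44.5% in all. With the replicate block 34 fell, beside 24.3% of all genes. The median change was -0.32, beside 0.00 over all genes, and 60 of the 62 lay below 0. Hist1h2al, a pseudogene by annotation with 67.6% of its windows shared, was among the 23. Without the 3 testis-type genes 20 of 59 fell. Outside them, the smallest p-values belonged to Hist2h4 (-0.51 ± 0.11), Hist1h2bp (-0.49 ± 0.11), Hist1h1a (-0.49 ± 0.11), Hist2h2bb (-0.44 ± 0.10), Hist1h2af (-0.50 ± 0.13), Hist3h2ba (-0.64 ± 0.17) and Hist1h2bj (-0.46 ± 0.12). Hist1h1a held 19930, 26142 and 21895 normalised reads at day 3 and 15531, 16615 and 16041 at day 5 (limma adjusted p = 0.0038), with no overlap. These 7 and the 3 testis-type genes were the 10 of 23 called in every fit. Scaled to the sample total, which moved the median of all genes by 0.139, 11 members fell, beside 14.9% of all genes. Without floxed day 5 replicate 3, a sample of neither group compared, 37 fell, beside 22.5% of all genes. Without null day 3 replicate 3, null day 5 replicate 1 or null day 5 replicate 2, 15 fell. In the same order, 19.8%, 19.7% and 18.3% of all genes fell in these fits.

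The test of the difference itself, the interaction of genotype and day, called no histone gene by limma. At the same adjusted threshold it called 0.476% of all genes (0.247% higher, 0.229% lower). Of the members 19 had an unadjusted limma p under 0.05, a threshold at which all genes were not counted. The members' median was -0.33, or -0.17 without floxed day 5 replicate 3. Hist1h2bp had the smallest p (-0.59 ± 0.16, limma adjusted p = 0.12) and was the 1 member called by DESeq2, which called 2.76% of all genes. With the replicate block, which called 2.61% of all genes, 3 members were called, Hist1h2bk (-0.57 ± 0.09), Hist1h2ah (-0.61 ± 0.12) and Hist1h3b (-0.75 ± 0.17), and edgeR called none.

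Genes that act on histone mRNA were compared in the same fit, where 13.5% of all genes were lower and 13% higher at day 5. Of 22 genes for histone transcription and 3′ end processing, 10 were lower and none higher in the null line at day 5 (median -0.19), led by Ncbp1 (-0.53 ± 0.07), a cap-binding subunit, Srrt (-0.47 ± 0.09) and Ccne1 (-0.41 ± 0.08), the cyclin E that acts on NPAT. Slbp, the stem-loop binding protein, held 3282, 3125 and 3431 normalised reads in floxed and 2784, 2875 and 2576 in null day 5 samples (-0.26 ± 0.08, limma adjusted p = 0.024), with no overlap. Npat was not called (0.08 ± 0.07), and Lsm11, a subunit of the U7 particle, was higher at day 3 (0.47 ± 0.13, limma adjusted p = 0.045) and not called at day 5 (0.21 ± 0.13). It lies on chromosome 11, and with that chromosome centred on its median its day 3 change was 0.11 (limma adjusted p = 0.63).

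Of 40 genes for S phase and DNA replication, 1 was higher and 1 lower at day 3 (4 and 3 with the replicate block), and 22 were lower and none higher at day 5 (median -0.26). Over all genes 4.09% were higher and 2.03% lower at day 3 (6.45% and 4.53% with the block). At day 5 13.5% of all genes were lower and 13% higher. Pcna, the sliding clamp, held 7517, 6728 and 7543 normalised reads in floxed and 4840, 5017 and 4884 in null day 5 samples (-0.56 ± 0.07). Rrm2 (-0.54 ± 0.07) and Mcm5 (-0.47 ± 0.06) followed. In the null line 26 of the 40 (65%) fell between the days and none rose, beside 8 (20%) that fell and 1 that rose in the floxed line. Over all genes 21.9% fell and 22.6% rose in the null line. In the floxed line 19.2% of all genes fell, near the 20% of this list, and 22.5% rose. The S phase genes summed to 188047, 185301 and 194030 in floxed day 5 samples and to 155500 to 158863 in null day 5 samples. Floxed day 5 replicate 3 was the highest of its group, as in the histone genes. Its S phase sum lay within the floxed day 3 range, 193978 to 197211, while its histone sum, 360571, lay above every other library. Whether S phase and histone values are linked was not tested.

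Among 21 chaperones and acetylation factors for new histones, 8 were lower and 1 higher at day 5, led by the FACT subunits Ssrp1 (-0.26 ± 0.06) and Supt16 (-0.27 ± 0.07). Over all genes 13.5% were lower and 13% higher at day 5 (17.3% and 15.9% with the replicate block). Of 11 replication-independent histone genes, whose mRNAs carry poly(A) tails, 3 were lower and 1 higher (4 and 4 with the replicate block). H3f3b, which encodes the variant H3.3 and lies on chromosome 11, held 19866, 19724 and 18994 normalised reads in floxed and 31895, 36661 and 34750 in null day 5 samples (0.82 ± 0.09), and H2afz was lower (-0.51 ± 0.09). Of 16 inhibitors of the cell cycle, 5 were higher and 1 lower at day 5, the latter Cdkn1c (-3.22 ± 0.26). Of the 17 other RNAs without a poly(A) tail, 5 were lower and 1 higher at day 5 (median -0.24), led by Scarna13 (-0.56 ± 0.09) and Rpph1 (-0.50 ± 0.09). At day 3, where the histone median was 0.01, 2 of these 17 RNAs (11.8%) were lower, beside 2.03% of all genes, and their median was -0.30. Their sums at day 3, 706812 to 832028 in floxed and 614259 to 662895 in null samples, did not overlap.

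Markers of cell types moved too, where 13.5% of all genes were lower and 13% higher in the null line at day 5. Of 7 pluripotency markers 5 were lower in the null line at day 5, of 5 primitive streak markers 2, of 6 neural markers 2 and of 7 endoderm markers none, and of 13 feeder fibroblast markers 3 were higher. The pluripotency markers summed to 33283 to 40027 normalised reads in floxed and 22326 to 25046 in null day 5 samples. The part of these cell types in the histone values was not tested.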

How the data were processed

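The authors deposited 1 table of signal values, read counts divided by 1 size factor per sample, from stranded total RNA libraries amplified with 8 PCR cycles, per the labels. Per the submitters' processing notes the build was mm10, and the tools, listed without roles, were DESeq 1.16.0, HTSeq 0.6.0, TopHat2 2.0.10 and CASAVA 1.8.2. The annotation release and use of strand in counting are not given in the sources used here. All nonzero values (100%) were whole multiples of the smallest value in their column (tolerance 0.01), which recovers whole reads. Symbols came from GENCODE M21 by gene ID without version (18199 of 18269).

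Genes were tested by limma-trend (limma 3.58.1, R 4.3.3) on log2(value + 1), pseudocount 1, with 4 group means over 12 samples and 5 contrasts, two-sided, Benjamini-Hochberg adjusted p under 0.05 over 17000 genes with a group mean of at least 10. Fold changes on this scale understate changes of low genes. It was tested on simulated data. Alternatives were other pseudocounts, filters, scalings and weights, a replicate block, each sample left out, and edgeR 4.0.16 and DESeq2 1.42.0 on recovered reads. Members and lists were chosen with earlier results of these data known. Named were called members (at most 10 a direction), the 8 densest, the H1, testis, Hist3, Hist4 and some Hist2 genes, and at most 3 genes a list and contrast.

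Replicate numbers from the labels were checked as pairs over 12636 genes with a mean of at least 50. Deviations of same-numbered samples correlated at r = 0.447 to 0.576 between lines at day 3, 0.344 to 0.523 at day 5 and 0.262 to 0.366 between days in the null line, and at 0.0937 to 0.285 in the floxed line, where other samples reached 0.243. The block was therefore read as pairing in the first 3 comparisons and not in the fourth.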

Additional observations from a re-analysis of the deposited data

How the results depend on the processing

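Of the 49 calls of histone genes over the comparisons, between 34 (scaled to the sample total) and 49 kept their direction and threshold under each alternative fit on all samples, and 37 to 47 did so without single samples. Counts of calls moved by more than 1.5 times as follows. At day 3, higher genes numbered 3 with sample weights and by DESeq2 and 2 with only the 2 groups compared (1 to 3 leaving out samples). Beside these, 5.24%, 5.64% and 3.37% of all genes were higher. Lower genes numbered 4 with the replicate block, beside 4.53% of all genes, and 0 to 2 leaving out samples. They numbered 1 among members with under 50% of their windows shared, a subset chosen after seeing the data. At day 5, higher genes numbered 0 with chromosome 11 centred, 2 with the block and 0 to 1 leaving out samples. Lower genes numbered 30 with the block, 11 in that subset and 12 to 22 leaving out samples, with medians of -0.38 to -0.15. Of all genes 10.7% were higher with chromosome 11 centred. With the block 15.9% of all genes were higher and 17.3% lower, and leaving out samples 9.02% to 13.7% were lower. In the floxed line, genes that rose numbered 2 scaled to the total, 2 with weights, 3 with the block and 1 to 2 leaving out samples. Those that fell numbered 5 with the block and 3 to 8 leaving out samples, with medians of -0.10 to 0.11. Of all genes 26.5% rose scaled to the total, 25.1% with weights and 24.9% with the block. With the block 21.9% of all genes fell, and leaving out samples 14.4% to 19.6% did. In the null line 11 fell scaled to the total, 13 in the subset and 15 to 37 leaving out samples. Of all genes 14.9% fell there scaled to the total and 18.3% to 22.5% leaving out samples. For the interaction, lower genes numbered 3 with the block and 1 by DESeq2, beside 1.36% and 1.47% of all genes. The members' medians ran from -0.41 to -0.17 leaving out samples. The median share of windows found elsewhere was 49.5% with 50-base and 32.8% with 100-base windows.

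Uncalled genes near 0 changed sign at day 5. Hist1h1c was at 0.022 by upper-quartile scaling, 0.051 by the total, 0.0037 recentred outside chromosome 11, 0.028 with weights and -0.098 to 0.076 without single samples. Hist2h2be was at 0.023, 0.050, 0.0057 and 0.137 in the same order and -0.224 to 0.181 without single samples. Hist1h2ba was at 0.0027 by the total and -0.567 to 0.384 without single samples, Hist1h2aa at -0.45 to 0.614 without single samples, and Lsm11 at -0.13 with chromosome 11 centred. The causes were not tested.

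The block took no call of a histone gene away. In the floxed line the numbers do not pair the samples, so its block values above compare only shared numbers. Counts in low genes such as Hist2h2be and the testis-type genes limit their precision.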
